A study of Mus musculus with 14 samples.

Results

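PRDM16 binding at the ends of genes was described in ventricles of mouse embryos at E13.5. Of 17587 PRDM16 ChIP-seq peaks listed for wild-type (WT) whole ventricles, 2877 (16.4%, 95% Wilson interval 15.8 to 16.9) had their summit within 1000 bp of either end of a protein-coding gene and did not share a base with a peak of the knockout. These are called gene-end peaks here. The 14 libraries of the study fall into 8 groups, all of strain C57BL/6: whole ventricles without atria (labelled whole heart), left ventricle (LV) and right ventricle (RV), each as PRDM16 ChIP and as input without antibody, at 2 WT libraries per group, and 1 ChIP and 1 input library of Prdm16 conditional knockout (Prdm16cKO) ventricles. The WT samples carry the label Mock for genetic manipulation. Each whole-heart library combined 3 hearts of a genotype, and each LV or RV library combined 10 to 12 ventricles, so that every value is an average over animals and over all cell types of the ventricle. The sources used here do not give the Cre driver of the knockout or the exons it removes. The ventricles were crosslinked with EGS and formaldehyde before the antibody was applied.

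PRDM16 is a zinc finger protein of the PR-domain family, best known for directing brown fat identity, and it works with the corepressors Ctbp1 and Ctbp2. In the developing heart it is known as a factor of the compact myocardium, the dense outer muscle layer of the ventricle wall. The start of a gene holds its promoter, where general transcription factors and RNA polymerase assemble, and many promoters of broadly active genes lie in CpG islands, stretches rich in G, C and the CpG dinucleotide.

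The promoters below show the sequence under strong gene-end peaks of genes named in this report, where the summit fell inside a promoter window. Other strong peaks, such as those at Ccny and Ankrd1, are not shown. They were taken from RefSeq (GRCm38.p6) and run from 250 bases before to 50 bases after a gene start, 5′ to 3′ on the strand of the gene. All 9 hold the summit of a gene-end peak inside the 300 bases. Capitals mark matches, on either strand, to short motifs known for cardiac factors, which are the T-box motif AGGTGT, the Hand motif CATCTG, the Gata motif AGATAA, the Tead motif GGAATG, the NK2 motif TCAAGTG, the Meis motif TGACAG and the Mef2 motif TATTTTTA. A match says only that these letters are present. Rbm39 lies on the minus strand at chr2:156180189-156180488, Cacna1c on the minus strand at chr6:119196360-119196659 and Zfp112 on the plus strand at chr7:24112070-24112369. Myl2 lies on the plus strand at chr5:122092939-122093238, Popdc2 on the plus strand at chr16:38361940-38362239 and Ppp1r12b on the minus strand at chr1:134955891-134956190. Dohh lies on the plus strand at chr10:81384184-81384483, Des on the plus strand at chr1:75360042-75360341 and Slc8a1 on the minus strand at chr17:81738338-81738637.
Rbm39: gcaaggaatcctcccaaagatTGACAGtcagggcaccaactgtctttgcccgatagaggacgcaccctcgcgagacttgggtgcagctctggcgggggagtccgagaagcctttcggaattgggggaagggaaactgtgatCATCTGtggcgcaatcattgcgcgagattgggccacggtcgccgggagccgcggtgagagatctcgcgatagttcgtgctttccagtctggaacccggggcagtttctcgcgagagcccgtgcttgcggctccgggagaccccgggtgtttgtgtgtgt
Cacna1c: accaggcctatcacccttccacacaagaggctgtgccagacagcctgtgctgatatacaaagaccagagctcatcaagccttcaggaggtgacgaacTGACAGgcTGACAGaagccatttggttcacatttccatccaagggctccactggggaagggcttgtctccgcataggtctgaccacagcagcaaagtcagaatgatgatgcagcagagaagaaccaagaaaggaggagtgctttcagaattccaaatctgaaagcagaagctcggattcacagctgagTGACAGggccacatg
Zfp112: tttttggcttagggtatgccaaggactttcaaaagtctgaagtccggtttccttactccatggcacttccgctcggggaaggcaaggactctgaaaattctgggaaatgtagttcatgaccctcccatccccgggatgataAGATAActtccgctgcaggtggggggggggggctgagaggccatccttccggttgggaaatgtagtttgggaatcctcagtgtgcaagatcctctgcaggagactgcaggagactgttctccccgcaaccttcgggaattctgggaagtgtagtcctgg
Myl2: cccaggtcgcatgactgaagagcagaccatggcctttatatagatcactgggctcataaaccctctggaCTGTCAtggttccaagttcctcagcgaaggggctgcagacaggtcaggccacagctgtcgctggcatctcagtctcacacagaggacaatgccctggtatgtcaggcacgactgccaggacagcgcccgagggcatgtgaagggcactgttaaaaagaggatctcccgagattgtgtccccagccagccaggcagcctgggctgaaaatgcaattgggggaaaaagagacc
Popdc2: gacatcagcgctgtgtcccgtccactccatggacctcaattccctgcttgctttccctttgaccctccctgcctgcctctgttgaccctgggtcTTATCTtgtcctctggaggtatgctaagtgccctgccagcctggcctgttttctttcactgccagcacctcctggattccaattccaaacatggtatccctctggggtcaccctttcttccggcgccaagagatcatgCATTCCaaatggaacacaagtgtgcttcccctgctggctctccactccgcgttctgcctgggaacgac
Ppp1r12b: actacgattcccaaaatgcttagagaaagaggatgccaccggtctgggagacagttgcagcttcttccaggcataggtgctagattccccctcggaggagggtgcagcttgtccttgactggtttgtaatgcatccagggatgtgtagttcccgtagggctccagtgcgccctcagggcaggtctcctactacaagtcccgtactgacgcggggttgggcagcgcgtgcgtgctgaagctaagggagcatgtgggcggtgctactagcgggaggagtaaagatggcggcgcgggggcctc
Dohh: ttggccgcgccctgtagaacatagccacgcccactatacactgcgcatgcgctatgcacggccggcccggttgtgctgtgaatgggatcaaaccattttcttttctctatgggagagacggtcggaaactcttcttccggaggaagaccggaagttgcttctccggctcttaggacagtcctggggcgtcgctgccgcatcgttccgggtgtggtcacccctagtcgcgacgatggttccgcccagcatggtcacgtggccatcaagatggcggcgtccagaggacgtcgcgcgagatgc
Des: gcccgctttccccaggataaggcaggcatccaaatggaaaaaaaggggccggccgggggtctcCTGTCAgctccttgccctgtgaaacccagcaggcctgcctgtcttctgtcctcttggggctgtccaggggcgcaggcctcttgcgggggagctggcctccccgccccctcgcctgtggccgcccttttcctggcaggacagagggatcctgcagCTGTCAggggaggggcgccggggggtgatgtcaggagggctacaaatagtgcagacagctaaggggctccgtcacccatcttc
Slc8a1: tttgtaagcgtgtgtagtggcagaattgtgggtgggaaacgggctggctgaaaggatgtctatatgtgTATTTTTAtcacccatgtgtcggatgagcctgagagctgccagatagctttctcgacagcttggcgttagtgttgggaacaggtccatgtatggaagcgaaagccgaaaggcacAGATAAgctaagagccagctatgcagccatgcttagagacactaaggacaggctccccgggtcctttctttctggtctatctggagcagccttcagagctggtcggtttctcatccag

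In the Rbm39 promoter the summit lay 243 bp before the start, and the 300 bases held 1 Meis and 1 Hand motif. The window of Cacna1c held 3 Meis motifs and that of Des held 2, while those of Ppp1r12b and Dohh held none of the motifs marked in capitals. The summit in the Slc8a1 promoter lay 52 bp before the start, in a window with 1 Gata and 1 Mef2 motif. The Cacna1c and Myl2 windows each belong to a start inside the annotated gene. At Cacna1c the summit is 244 bp before that start, but 731 bp inside the outermost end of the gene. At Myl2 it is 108 bp before that start, but 357 bp inside the outermost end.

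Gene-end peaks sat at gene starts. The strand is known for 17492 of the 21887 genes, and of the 2260 gene-end peaks with a nearest end on a known strand, 2017 (89.2%, 95% Wilson interval 87.9 to 90.5) were nearest to a start and 243 to a 3′ end. For the other 617 the end could not be assigned. At starts the summits crowded around the first base: 56.0% lay within 250 bp, the median position was 67 bp into the gene, the quartiles were 125 bp before and 336 bp into it, and 59.9% of summits were inside the gene. The fullest 100 bp, directly after the start, held 295 summits, against 13 in the 100 bp farthest before it. At 3′ ends the summits were spread over the window, with 20.2% within 250 bp and 5 to 16 summits in each 100 bp. Of the 243 peaks at 3′ ends, 40 (16.5%, 95% Wilson interval 12.3 to 21.6) also lay within 1000 bp of the start of some gene. Fold enrichment, the ratio of ChIP to background given by the authors' peak caller, had a median of 3.56 at starts and 3.90 at 3′ ends, and 1.29% of the peaks at starts reached 10-fold against 4.53% at 3′ ends.

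**Figure D1:**
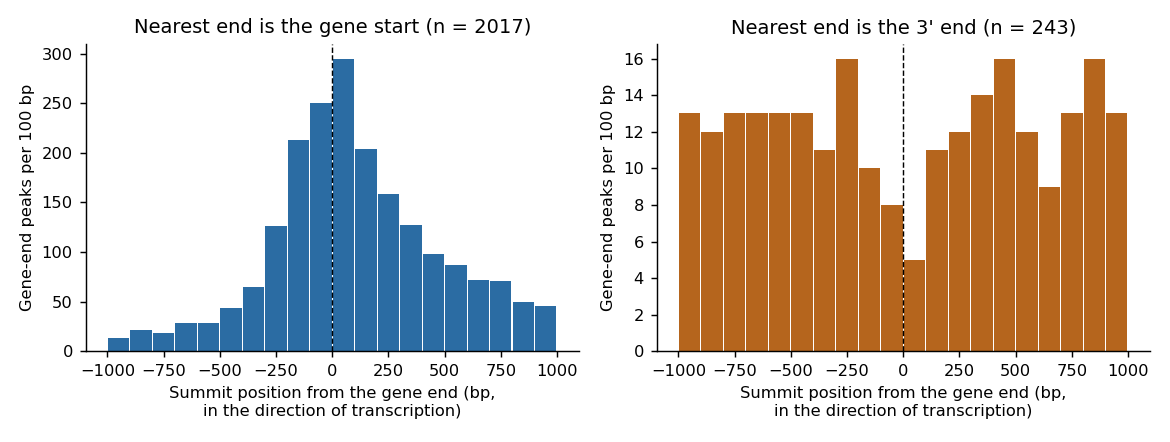
Number of gene-end peaks (y axis) by the position of the summit in bp from the nearest gene end (x axis, 100 bp bars, negative values upstream in the direction of transcription), at gene starts (left, n = 2017) and at 3′ ends (right, n = 243). The bars at starts peak at 295 beside the start, while those at 3′ ends stay between 5 and 16.

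Compared with PRDM16 peaks elsewhere, gene-end peaks had a lower fold enrichment but more reads. Their median fold enrichment was 3.58 (quartiles 3.11 and 4.35), against 4.07 for the 8477 peaks inside genes, 4.12 for the 3395 within 50 kb of a gene and 4.21 for the 2641 further away, all without knockout overlap. A fold enrichment of at least 10 was reached by 50 gene-end peaks (1.74%), and by 2.84%, 3.42% and 3.56% of the peaks in those other locations. In reads of the LV and RV libraries, which are separate from the whole-heart libraries, gene-end peaks ranked first instead of last. Normalized reads here are each library's read count, solved for from the signal columns of the authors' deposited table, times the authors' scaling factor of that library; libraries are called A and B by this factor, since their replicate numbers cannot be told. Median normalized reads per kb of gene-end peak were 33.8 (library A) and 29.7 (library B) in LV, and 34 and 29.8 in RV. Inside genes they were 24.3, 25.7, 24.4 and 25.1. In each of the 4 libraries the median at gene ends was the highest of the 4 locations. Gene-end peaks were also slightly narrower, with a median width of 282 bp against 299 to 306 bp. These medians describe peaks, which are not replicates, and were not tested; reads in the input libraries at these peaks were not analysed here.

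**Figure D2:**
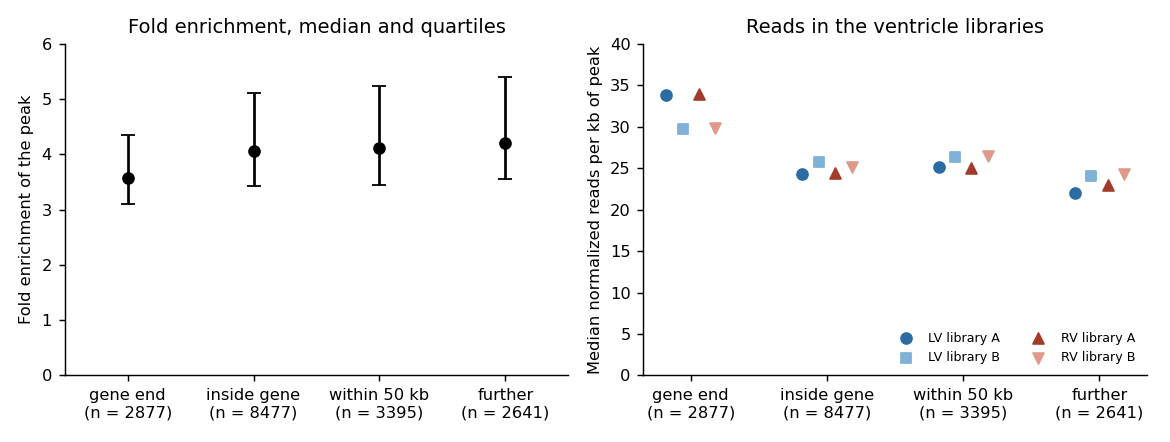
Left, fold enrichment (y axis) as median (points) and quartiles (bars) of the peaks at gene ends, inside genes, within 50 kb of a gene and further away. Right, median normalized reads per kb of peak (y axis) in each LV and RV library. Gene ends have the lowest median fold, 3.58, and the highest reads per kb, 29.7 to 34.

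The depth of the ventricle libraries sets the precision of single peaks. The WT peaks held 184244 to 330443 reads per library, and the median gene-end peak held 13 reads in LV library A, 6 in LV library B, 11 in RV library A and 9 in RV library B. The knockout list held 330 peaks from 1 library, so that loss in the knockout has no replicate check. Of the 2884 WT peaks with a summit near a gene end, 7 (0.243%, 95% Wilson interval 0.118 to 0.5) overlapped a knockout peak, against 190 of 14703 other WT peaks (1.29%, 1.12 to 1.49). The 7 were left out by the rule. Among them were the strong peak near Hspb7, a small heat shock protein of muscle, with a fold enrichment of 12.85 in WT and 8.229 in the knockout, and a peak at Rps29, a ribosomal protein, with 6.819 and 9.053. The other 5, at Wls, Lars2, Gm20594, Oasl1 and Gm32584, had WT folds of 1.384 to 1.896.

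Of the 15 gene-end peaks of highest fold, those at Myl2, Ankrd1 and Ttn belong to the sarcomere list and that at Cacna1c to the list of calcium handling and ion channel genes. The highest fold enrichment, 26.1, was at Rbm39, a splicing factor, where the peak (chr2:156180191-156180832) had 92.3 (library A) and 76.2 (library B) normalized reads in LV, and 110.0 and 112.9 in RV. Cacna1c, the pore subunit of the cardiac L-type calcium channel, had a fold of 21.7 (chr6:119196342-119197323) with 135.5 and 98.2 in LV and 136.8 and 124.4 in RV. Myl2, the ventricular myosin light chain, had a fold of 21 (chr5:122092517-122094027) with 131.7 and 92.3 in LV and 101.3 and 95.5 in RV. The RV values of Cacna1c and Myl2 lay within or beside the range of the LV values, and in Rbm39 both RV libraries were above both LV libraries. Ankrd1, a stress-responsive protein of the sarcomere, had a fold of 20.7 and the highest values in RV, with 125.8 and 79.1 in LV and 170.6 and 139.9 in RV. The remaining peaks of the 15 strongest were at Ccny (cyclin Y, 23.6), Zfp112 (a zinc finger protein, 21.3), Tomm34 (a mitochondrial import factor, 18.1), Popdc2 (a Popeye protein of heart muscle, 17.9), Ppp1r12b (a myosin phosphatase subunit, 17.5), Sptb (spectrin, 15.9), Dohh (deoxyhypusine hydroxylase, 15.7), Hspb2 (a muscle heat shock protein, 14.8), Ttn (titin, 14.7), Mylpf (a myosin light chain, 14.5) and Trim55 (a ubiquitin ligase of the sarcomere, 14.4). Of the 15, 11 were nearest to a start, 1 (Tomm34) to a 3′ end and 3 to an end of unknown strand.

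All 15 strongest peaks had reads in all 4 ventricle libraries. LV library B, the shallowest, gave the lowest normalized value at 13 of them. The 2 LV values overlapped with the RV values at 12, and both RV libraries were above both LV libraries at 3. Among all WT peaks the latter held at 17.6%, and both LV libraries were above both RV libraries at 17.9%. The log2 difference of RV over LV, fitted with limma, ranged from -0.16 to 0.63 over the 15, and the smallest limma adjusted p was 0.807.

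**Figure D3:**
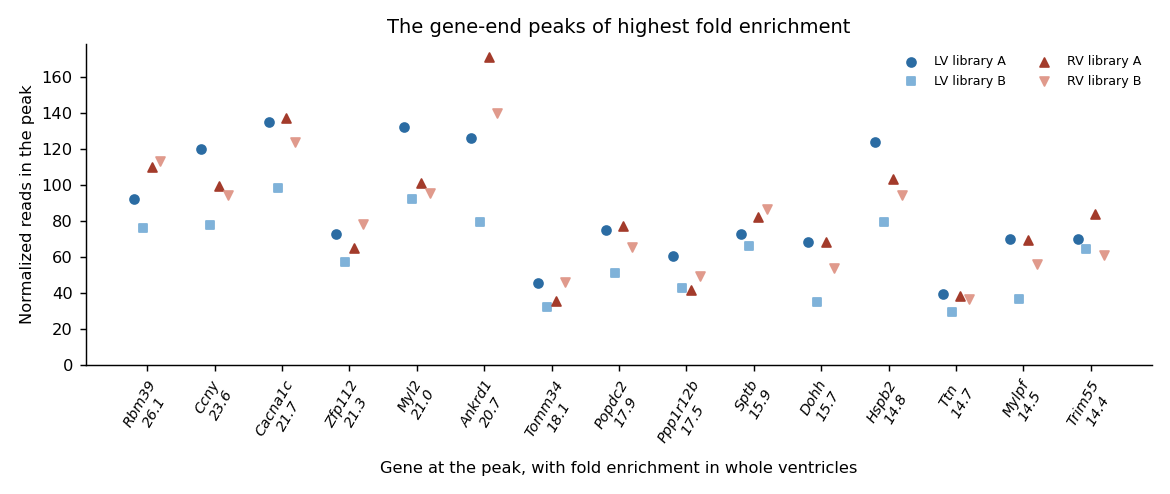
Normalized reads in the 15 gene-end peaks of highest fold enrichment (y axis), 1 point per LV or RV library, with the gene and its fold enrichment in whole ventricles on the x axis. All 15 peaks have reads in each library, and LV library B is lowest at 13 of the 15.

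A gene-end peak was found at 2898 of 21887 protein-coding genes (13.2%), which is the background for each gene list below. Most lists of heart muscle genes were above it. Among 32 sarcomere genes, which build the contractile unit, 22 had one (68.8%, 95% Wilson interval 51.4 to 82.0), and the strongest peak of 18 of the 22 had a fold of at least 5. These included Des, the muscle intermediate filament (13.2), Actc1, cardiac actin (13.1), Myh6, the alpha myosin heavy chain (11.8), Tnnt2, cardiac troponin T (11.1), and Mybpc3, cardiac myosin binding protein C (10.2). Of all 2877 gene-end peaks, 422 (14.7%) reached a fold of at least 5. That share counts every peak, while the 18 of 22 counts the strongest peak of each gene, out of 34 peaks. The Actc1 peak (chr2:114052796-114054898) had 142.2 and 82.0 normalized reads in LV and 147.2 and 107.1 in RV. At Myh6 (chr14:54968155-54969532) the values were 113.9 and 93.8 in LV and 108.3 and 74.3 in RV, so that the ventricles overlapped at both genes. At Des both RV values (62.4 and 50.2) were above both LV values (42.4 and 42.5).

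Of 21 genes for calcium handling and ion channels, 7 had a gene-end peak (33.3%, 17.2 to 54.6), an interval that overlaps that of the sarcomere list. Behind Cacna1c came Slc8a1, the sodium-calcium exchanger (fold 12.9), with 45.4 and 39.6 normalized reads in LV and 49.4 and 46.3 in RV. Jph2, which ties the sarcoplasmic reticulum to the cell membrane, had 8.28, Trdn, triadin, 6.38, Pln, phospholamban, 4.11, and Ryr2, the calcium release channel, 3.0. At Jph2, LV library B stood apart with 14.7 normalized reads against 49.4 to 55.8 in the other libraries.

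Of 27 cardiac transcription factor genes, 18 had a gene-end peak (66.7%, 47.8 to 81.4). Of the 17 list genes with a known strand, 9 had one at the start. The strongest was beyond the 3′ end of Tbx18, a T-box gene of the epicardium and sinus horn (11.8), with 11.9 and 10.3 normalized reads in LV and 18.2 and 12.5 in RV. Then came Tbx5 (6.46), a T-box factor of the left ventricle and atria, Gata4 (5.63), Hand2 (5.30), Prdm16 itself (5.15) and Myocd, myocardin (5.04). The summit at Prdm16 (chr4:154636270-154637283) lay 463 bp into the gene and had 48.4 and 33.7 normalized reads in LV and 33.8 and 45.3 in RV. At Gata4 1 RV library differed from the rest, with 33.5 and 33.7 normalized reads in LV, 43.3 in RV library A and 14 reads in RV library B.

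Genes of the trabecular layer, the inner sponge-like muscle, had gene-end peaks at 10 of 19 (52.6%, 31.7 to 72.7) and those of the compact layer at 6 of 12 (50%, 25.4 to 74.6). The intervals overlap. Nppa, the atrial natriuretic peptide, had a fold of 10.1 and 70.7 and 39.6 normalized reads in LV against 33.8 and 48.2 in RV. Nppb, its ventricular relative, had 6.97, with 61.0 and 55.7 in LV above 42.4 and 44.4 in RV.

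The peaks at Mycn and Hey2, 2 genes of the compact layer, differed widely between libraries of the same ventricle. Mycn had 604.4 normalized reads in LV library A (812 reads), but 36.6 in LV library B, 29.4 and 76.2 in RV. It was the one gene-end peak where a single library held at least 20 reads and at least 4 times the normalized reads of each other library. Hey2 had 396.7 and 32.2 in LV and 20.8 and 496.8 in RV, so that 1 library of each ventricle was high. Its direction turned with the LV library left out: higher in LV without LV library B, higher in RV without LV library A. The whole-heart fold was 8.31 at Mycn and 4.66 at Hey2, lower than at many peaks with fewer ventricle reads. Adjusted p with limma was 0.671 for Mycn and 0.992 for Hey2. Both were called without LV library B, and Hey2 also without LV library A.

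TGF-beta and BMP genes had 15 of 27 with a gene-end peak (55.6%, 37.3 to 72.4), from the inhibitory Smad7 (6.83) and the BMP effector Smad1 (6.20) to Skil, a repressor of Smad activity (5.75), the receptor Bmpr1a (4.88), the common mediator Smad4 (4.22) and the target Id2 (4.01). The immediate early genes, which answer quickly to stimuli, had 13 of 30 (43.3%, 27.4 to 60.8), led by Ccn2 (7.13), Atf3 (6.69), Jun (5.54), Ccn1 (5.29), Klf6 (4.40) and Zfp36l1 (4.35). Notch genes had 6 of 18 (33.3%, 16.3 to 56.3), with Hey2, Mib1 and Maml1 first, and Wnt genes 6 of 24 (25%, 12.0 to 44.9), with Dvl1, Fzd2 and Gsk3b first. The Wnt interval includes the background.

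PRDM16 partners and other PRDM genes had 11 of 28 (39.3%, 23.6 to 57.6). Beside Skil and Prdm16 these were led by Prdm8 (4.29), Ctbp2 (4.04), Ctbp1 (3.77) and Nrip1 (3.74), the last 3 encoding corepressors. At Ctbp1 the 2 LV libraries had 17.9 and 11.7 normalized reads and the RV libraries 8.66 and 6.75. At Nrip1 the order was the other way, with 3.72 and 1.47 in LV and 6.06 and 10.6 in RV. Neither peak passed the test. Splicing and RNA-binding factors had 12 of 37 (32.4%, 19.6 to 48.5), with Rbm39 first, then the peak shared by Cbx3 and Hnrnpa2b1 (12.4), Rbm24 (5.01), Tra2b (4.97), Rbm20, the titin splicing factor (4.87), and Qk (4.43). Chromatin remodelling genes had 9 of 32 (28.1%, 15.6 to 45.4), with Smarca2 (8.01), Kmt2d (4.98) and Kdm5a (4.56) first.

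Replication-dependent histone genes had the highest share of the 34 lists, 55 of 69 (79.7%, 68.8 to 87.5), through 48 peaks. Their fold enrichment was low, with a median of 3.35. The linker histones led, with H1f3 at 13.6, H1f2 at 9.58 and H1f4 at 8.99, and summits 175 to 178 bp from the gene end, inside the gene. H1f3 had 70.0 and 44.0 normalized reads in LV and 64.1 and 41.5 in RV, with library A above library B in both ventricles. Histone genes are short, with a median length of 496 bp against 17169 bp for all genes, and lie in clusters, so that 1 summit can count for several. Near-identical copies can also share reads, and the sources used here do not say how reads with several matches were handled, so that single histone peaks are uncertain.

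Ribosomal, proteasome, translation and respiratory chain genes were near the background of 13.2%. Cytosolic ribosomal proteins had 9 of 81 (11.1%, 6.0 to 19.8), mitochondrial ribosomal proteins 9 of 78 (11.5%, 6.2 to 20.5), proteasome subunits 6 of 49 (12.2%, 5.7 to 24.2), translation factors 9 of 70 (12.9%, 6.9 to 22.7), and nuclear-encoded respiratory chain genes 12 of 89 (95% Wilson interval 7.9 to 22.1). The strongest peaks in them were at Rps21 (7.28), Rpl34 (5.61) and Rps20 (5.07), at Mrpl39 (5.43), Mrpl34 (4.79) and Mrpl51 (4.26), and at Psmd2 (4.05), Psme2 (3.71) and Psma7 (3.50). Translation factors were led by Eif2ak3 (7.07), Eef1a2 (3.89) and Eif2b5 (3.71). In the respiratory chain the heart and muscle form Cox6a2 stood first with 12.7, ahead of its broadly expressed relative Cox6a1 with 5.80 and Uqcr10 with 4.69. Cell cycle genes had 3 of 25 (12.0%, 4.2 to 30), which were Cdkn1b, Rb1 and Cdk4. Zinc finger genes of the Zfp series had 58 of 394 (14.7%, 11.6 to 18.6), with Zfp112, Zfp521 (5.66) and Zfp871 (5.64) first, and solute carriers 50 of 337 (14.8%, 11.4 to 19), among them Slc8a1 and Slc25a42 (7.55). Heat shock proteins and chaperonins lay above the background, with 21 of 82 (25.6%, 17.4 to 36), with Hspb2, Dnaja3 (9.0) and Hspa1a (6.16) first.

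Metabolic lists lay above the background. Glycolysis and hypoxia genes had 8 of 21 (38.1%, 20.8 to 59.1), with the lactate transporter Slc16a3 (5.87), pyruvate kinase Pkm (5.50) and hexokinase Hk2 (4.38) first. Fatty acid oxidation and brown fat genes had 8 of 22 (36.4%, 19.7 to 57.0), with the acyl-CoA dehydrogenase Acadm (6.65), the nuclear receptor Esrrb (6.52) and lipoprotein lipase Lpl (3.98) first.

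Marker lists of other cell types ranged from 0 to 33.3% of genes with a gene-end peak. Endothelium and endocardium had 2 of 20 (10%, 2.79 to 30.1), Erg (3.07) and Klf2 (2.62), the epicardium 1 of 14 (7.14%, 1.27 to 31.5), Tbx18, and erythroid and immune cells 1 of 18 (5.56%, 0.988 to 25.8), Spi1 (5.02). All 3 intervals include the background of 13.2%. Hepatocyte genes had 0 of 18, which allows up to 17.6% by the Wilson interval. Olfactory receptor genes, which are silent in most tissues, had 1 of 1110 (0.0901%), Olfr607, with a fold of 10.5 and 23.2 to 35.5 normalized reads in the 4 libraries. Fibroblasts and valve mesenchyme had 5 of 20 (25%, 11.2 to 46.9), with Ddr2 (7.03), Sparc (5.10) and Vcan (4.81) first. Neurons had 5 of 24 (20.8%, 9.2 to 40.5), with Ncam1 (10.7), Syt1 (4.32) and Elavl4 (3.96) first. Smooth muscle had 4 of 12 (33.3%, 13.8 to 60.9), with Des, Cnn1 (5.26) and Acta2 (3.46) first. For these 3 lists, and for the 4 of 13 genes of the right ventricle and second heart field (30.8%, 12.7 to 57.6) with Hand2, Fgf10 (3.98) and Sema3c (3.45) first, the share was above the background, but the interval included it in all but smooth muscle. The smooth muscle interval began at 13.8%, just above the 13.2%, and Des is also counted in the sarcomere list.

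**Figure D4:**
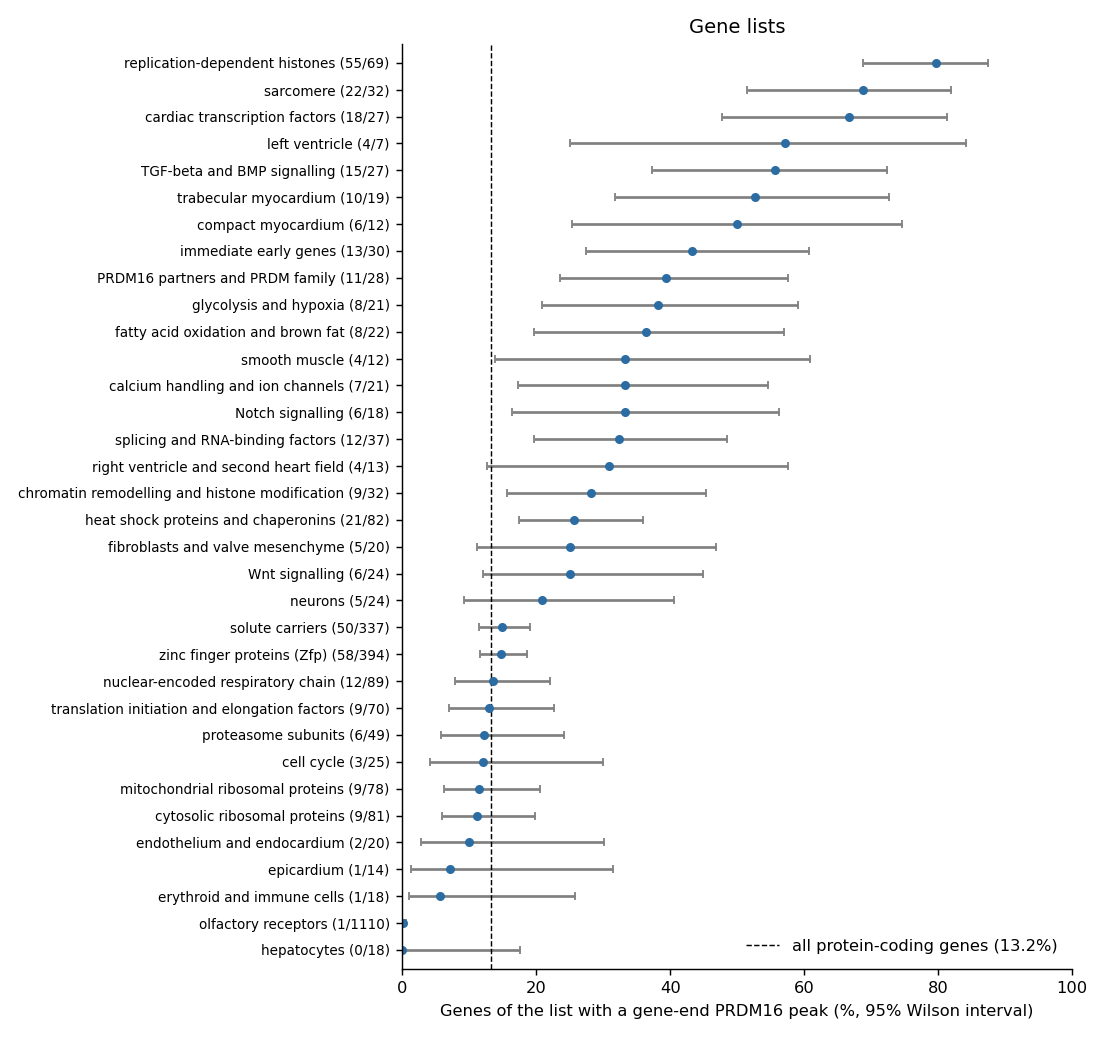
Percent of the genes of each list with a gene-end peak (x axis; points, with 95% Wilson intervals as bars) for 34 lists (y axis, with counts), against the 13.2% of all protein-coding genes (dashed line). Histone, sarcomere and cardiac transcription factor genes are highest, at 79.7%, 68.8% and 66.7%, and ribosomal, proteasome and respiratory chain genes lie near the line.

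Some gene-end peaks served more than 1 gene. Of the 2877, 2544 were near the end of 1 gene, 328 near ends of 2 and 5 near ends of 3 or more. In 172 of the 328 both ends were starts, in 62 a start met a 3′ end, in 9 both were 3′ ends, and in 85 a strand was unknown. The strongest were at Mylpf and Tbc1d10b (14.5), at Thra and Nr1d1, which encode nuclear receptors (13.2), and at Cox6a2 and Itgad (12.7). The peak of Thra and Nr1d1 (chr11:98768476-98769381) had 64.0 and 57.1 normalized reads in LV and 59.8 and 54.0 in RV. The peaks listed above for Kmt2d, Mrpl34, Uqcr10, Ctbp2 and Qk were also shared. Each lay nearer to an end of another gene: Prkag1, Abhd8, Zmat5, Gm35364 and Gm46608, in that order. Most genes with a gene-end peak had 1 (2569), 298 had 2 and 31 had 3, the largest number. Among the 31, Akt1 and Bcl6 had peaks at both ends, with folds of 2.87 to 4.89 at Akt1 and 2.93 to 3.94 at Bcl6.

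The limit of 1000 bp passed through a continuous range of distances. The summits just inside it were at Gm3696 and Atp5g3, both 1000 bp from the end, with folds of 3.95 and 2.58. Those just outside were at Bbs5 (1002 bp, 3.17) and Hmces (1003 bp, 3.96).

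Promoters with a gene-end peak were rich in G and C. The summits of 844 peaks fell into 907 promoter windows of protein-coding genes, of 21263 such windows. Their median GC content was 63.3% (quartiles 58.0 and 69.5), against 56.3% (48.3 and 64.7) for all windows, and their median ratio of observed to expected CpG was 0.776 against 0.567. The GC box GGGCGG, bound by Sp and Klf factors, occurred on either strand in 72.5% of them (95% Wilson interval 69.6 to 75.4) against 46.2% of all windows, and CCGGAAG, bound by Ets factors, in 18.7% (16.3 to 21.4) against 11.6%. The TATA box TATAAA was rarer, with 4.85% (3.63 to 6.45) against 12.6%. The GC content of the windows moves with these shares, and its part in them was not tested.

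Motifs of cardiac factors differed less. The Meis motif TGACAG was in 22.6% (20 to 25.4) against 18.7% of all windows, the Tead motif GGAATG in 16.5% (14.3 to 19.1) against 13.6%, the Gata motif AGATAA in 7.39% (5.86 to 9.27) against 9.65%, and the T-box letters AGGTGT in 9.15% (7.44 to 11.2) against 12.7%. The longer T-box core AGGTGTGA, which contains AGGTGT, was in 0.662% against 1.15%. The Hand motif CATCTG was in 12.3% (10.4 to 14.6) against 14.6% of all windows. The NK2 motif TCAAGTG was in 1.98% (1.26 to 3.12) against 2.95%, and the Mef2 motif TATTTTTA in 1.65% (1.0 to 2.71) against 2.17%. In the 100 promoters with the strongest peaks, all at a fold of at least 5.41, TGACAG was in 35% (26.4 to 44.7), GGAATG in 18% (11.7 to 26.7), AGATAA in 15% (9.31 to 23.3) and GGGCGG in 57.0% (47.2 to 66.3). These 100 had a median GC content of 59.8%, between that of all 907 windows and that of all genes. The number of 100 was set after motif shares had been seen, so that these values are a description.

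LV and RV were compared at the gene-end peaks, since PRDM16 is reported by the study's title to act in the left ventricle. More cells with PRDM16 bound and more PRDM16 bound per cell cannot be told apart in pooled ventricles. With limma, fitted over all WT peaks on log2 of normalized reads plus 1, 1 gene-end peak (0.0348%) differed at an adjusted p of 0.05, against 5 (0.0284%) of all 17587 peaks. At an unadjusted p of 0.05, 150 gene-end peaks (5.21%) passed, 71 higher in LV and 79 in RV, against 6.32% of all peaks. Both LV libraries were above both RV libraries at 464 gene-end peaks (16.1%), against 17.9% of all peaks, and the reverse held at 437 (15.2%), against 17.6%. A log2 difference of at least 1 in either direction in the authors' deposited table was found at 209 (7.26%), against 10.6% of all peaks. Apart from the share at the adjusted p, which rests on 1 peak, these shares were below those of all peaks. Gene-end peaks also held more reads than the other peaks without knockout overlap. The medians were 13 against 10 in LV library A and 6 against 5 in LV library B. In RV they were 11 against 8 (library A) and 9 against 8 (library B). The part of read depth in the lower shares was not tested. By the authors' deposited table, no gene-end peak had an adjusted p under 0.05 and 6 (0.209%) had an unadjusted p under 0.05. The shares of all peaks by that table were not counted here, so these counts cannot be read as particular to gene ends.

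The peak that passed was at Tbx5 (chr5:119796420-119796866), 141 bp inside one end of the gene. Library A had 50 reads in LV and 5 in RV, and library B had 17 and 8, which are 37.2 and 24.9 normalized reads in LV against 4.33 and 7.72 in RV, so that both LV libraries were above both RV libraries. The limma log2 of RV over LV was -2.21 (SE 0.402, adjusted p 0.0186). The authors' deposited table gave it a log2 of -2.27 with an unadjusted p of 0.000885 and an adjusted p of 1.0. With a pseudocount of 0.1 the limma adjusted p was 0.125. Leaving out LV library A it was 0.0532, and leaving out RV library A or B it was 0.981 or 0.992, with log2 values of -1.93, -1.85 and -2.56; leaving out LV library B it was 0.00147. Each such fit assumes that the lone library varies like the others.

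Other peaks with small p-values did not pass. Those higher in LV included Efnb3, an ephrin ligand (limma log2 -1.27), Flnc, muscle filamin (-1.34), and P4ha2, a collagen hydroxylase (-1.52), with adjusted p of 0.393 to 0.573. Efnb3 had 31.3 and 38.1 normalized reads in LV and 12.1 and 15.4 in RV. Flnc rested on LV library B, with 17.1 and 61.5 in LV and 8.66 and 17.4 in RV. Those higher in RV were at Meis2, a homeobox factor (log2 2.27), Dtx4 (2.16), Tufm (2.17), Dock6 (1.92) and Rab36 (2.30), with adjusted p of 0.542 to 0.610, and all had at most 12.1 normalized reads in any library. Meis2, for example, had 1 read in each LV library and 8 and 12 in RV. In the list of 7 left ventricle genes, 4 had gene-end peaks, and all 5 of these peaks were higher in LV. Over all 2877 gene-end peaks, 1444 were higher in LV. The median log2 of the 5 in the authors' deposited table was -0.77, beside a median of -0.0019 over all 2877. The 5 belong to Tbx5, Nppa, Gja5 (5.10-fold) and Pln, and Tbx5 alone was called. At the strongest peak of each gene, both LV libraries were above both RV libraries at 2 of the 4 (16.1% of all gene-end peaks). At Nppa and Pln the ventricles overlapped.

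**Figure D5:**
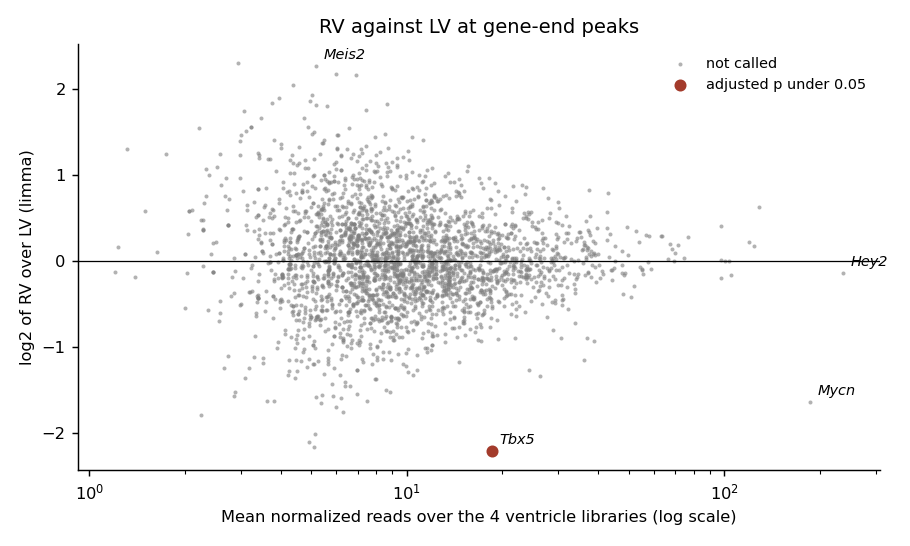
The limma log2 of RV over LV (y axis) of each gene-end peak against its mean normalized reads in the 4 ventricle libraries (x axis, log scale). Tbx5, at -2.21, is the one peak with an adjusted p under 0.05, while Mycn and Hey2 have the most reads and were not called.

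Single libraries of the same ventricle differed about as much as single libraries of different ventricles. Among the 1693 gene-end peaks with a mean of at least 8 normalized reads, the median absolute log2 difference was 0.435 between the LV libraries and 0.374 between the RV libraries. Between an LV and an RV library it was 0.338 (LV A and RV A), 0.396 (LV A and RV B), 0.43 (LV B and RV A) and 0.438 (LV B and RV B). Gene-end peaks held 15.6% (library A) and 11.8% (library B) of the LV reads in WT peaks, and 15.1% and 12.7% of the RV reads. The means were 13.7% in LV and 13.9% in RV, a difference smaller than that between libraries of either ventricle (exact two-sided permutation p = 1.0, where 2 against 2 libraries cannot go below 0.333). Without LV library A the RV mean was 2.08 percentage points above LV, and without LV library B the difference was -1.64 points.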

How the data were processed

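The files are a WT and a Prdm16cKO peak list and a table with LV and RV columns over the same 17587 peaks. The submitters' processing notes name BWA (0.7.12-r1039), MACS2 (2.1.1.20160309), HOMER, DESeq2 and GRCm38 (mm10); they do not say how libraries were pooled or inputs used. The deposited peak lists give a score, the fold enrichment (a ratio), and the -log10 p-value and -log10 q-value. In the deposited table LV and RV are scaled signal, the log2 columns are on a log2 scale with RV over LV, and an unadjusted p-value stands beside an adjusted one.

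Each LV or RV value equalled 0.5 plus the mean over 2 libraries of whole reads times a factor (0.744 and 1.465 in LV, 0.866 and 0.965 in RV), with 1 solution at 100% of peaks (tolerance 1e-07). The steps were tested on simulated data. For limma the simulated libraries all varied alike, so that single high libraries, as at Mycn and Hey2, were not covered. Gene ends came from a RefSeq table (GRCm38, 21887 protein-coding genes) and strands from its promoter table. LV and RV were compared with limma 3.58.1 (R 4.3.3), adding a pseudocount of 1 before log2, with a mean-variance trend and Benjamini-Hochberg adjustment over all WT peaks. Whether pools came from separate litters is not stated, so that p-values measure the spread between these pools.

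The members, the 34 lists and the tests were chosen with earlier results of these data known. Genes were named by rule: the 15 peaks of highest fold, the strongest 3 or 6 of each list, peaks called by limma or with the 5 smallest p on each side, the 2 on either side of 1000 bp, the 3 strongest shared by 2 genes, and up to 4 genes with most peaks. Tnnt2, Mybpc3 and the peaks with knockout overlap were named after their values were seen. Some genes chosen this way are left out here. All list symbols were found, 2 through a synonym. Intervals are Wilson's at 95% and cover counting error only.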

Additional observations from a re-analysis of the deposited data

How the results depend on the processing

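With a -log10 q of at least 5, 1716 gene-end peaks and 1815 genes were left. Windows of 500 or 2000 bp gave 2148 or 3632 peaks, and 10.3% or 16.1% of genes. At 500 bp, splicing factors with a gene-end peak numbered 7, chromatin genes 5 and neuronal genes 3; at 2000 bp, neuronal genes numbered 9 and cell cycle genes 6. Gene-end peaks called between LV and RV numbered 0 with a pseudocount of 0.1 (143 at an unadjusted p of 0.05), 0 by the adjusted p of the authors' deposited table (6 unadjusted), and 0 to 17 when 1 library was left out: 17 without LV library A, 3 without LV library B (Tbx5, Hey2 and Mycn), and 0 without RV library A or B (111 and 60 unadjusted). Without LV library A, Hey2 was among those called, and Flnc passed on the LV side and Dtx4 and Tufm on the RV side (limma adjusted p 7.08e-05, 0.00447 and 0.0132). Hey2 was higher in LV without LV library B but higher in RV without LV library A. A pseudocount of 5, a mean of at least 8 normalized reads and scaling by total reads in peaks each gave 1 called gene-end peak, Tbx5. Among all peaks fitted, these settings called 14, 8 and 5. The share of reads at gene-end peaks, RV minus LV, was -0.0776 percentage points with knockout-overlapping peaks left out of the total, -0.00572 without the 1% of peaks with most reads, and -1.64 to 2.08 when 1 library was left out. The causes of these shifts were not tested. No paired analysis was possible because the libraries behind the LV and RV values carry no replicate number. In LV library B the median gene-end peak held 6 reads, which limits the precision of single peaks.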
